A study of Mus musculus with 2 samples.

Results

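The genes described here are 10 members of the vascular transcriptome of the embryonic mouse brain, out of 43346 genes with an Ensembl identifier in the tables. The 5 barrier members were Cldn5, Mfsd2a, Slc2a1, Abcb1a and Slco1c1, which equip brain vessels for tight sealing and selective transport. The 5 general members were Kdr, Flt1, Pecam1, Tek and Tie1, which are used by endothelium throughout the body. All 10 were chosen by name and found in both tables by matching the Ensembl identifier to its GENCODE symbol.

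The material was midbrain from the B6NCrl mouse strain at 14.5 days of embryonic development, with no treatment or engineered allele in the labels. Each of 2 total RNA libraries was made from 1 pup's midbrain, and the pups, called embryo 1 and embryo 2 here, were taken on separate days. Both libraries belong to 1 group, so there is nothing to test between groups and no p-value is given. The values describe how high each gene stood, how far the embryos lay apart, and how the barrier members compared with the general ones.

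Endothelial cells line all blood vessels and grow toward vascular endothelial growth factor (VEGF), which they bind through the receptors encoded by Kdr and Flt1. Angiopoietins act through the receptor encoded by Tek, whose signal is modulated by its relative Tie1, and these pathways shape sprouting and later vessel stability. In the brain, vessels enter the neural tube from a surrounding plexus, and Wnt7 ligands from neural cells switch on the blood-brain barrier programme, in which tight junctions form, vesicle transport is held low and dedicated carriers supply the tissue.

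Levels are in TPM, a measure of transcript abundance scaled for transcript length and library size. The tables assigned 32.7 × 10⁶ reads to embryo 1 and 30.2 × 10⁶ to embryo 2, of which the added ERCC spike-in RNAs took 3.15% and 3.32%. The midbrain label was checked with genes chosen after their values were seen: Otx2, a forebrain and midbrain factor, had 99.9 TPM in embryo 1 and 76.3 in embryo 2, and En1, a factor of the midbrain and hindbrain border, had 13.5 and 14.3. Hoxb4, a hindbrain factor, had 0 counts in both. The labels record pooled sex for both samples, at odds with 1 pup each. The X-inactivation RNA Xist stood at 0.01 TPM in embryo 1 and 62.0 in embryo 2, and the Y-linked Ddx3y at 22.3 and 0 TPM. Sex and collection day therefore differ along with every ratio between the embryos and cannot be told apart from it.

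The libraries also differed in markers of other cells. All 7 meningeal fibroblast markers were at least 2-fold higher in embryo 1, against 3.35% of 14011 genes with at least 100 summed counts. Their summed level was 402 TPM in embryo 1 and 10.0 TPM in embryo 2. Fibroblasts lie in the meninges, where the plexus that feeds the brain also runs. Among 10 macrophage and microglia markers all 10 were higher in embryo 1, against 49.4% of the same 14011 genes. Their sums were 127 and 50.2 TPM. The 9 erythroid markers found summed to 9892 TPM in embryo 1 and 6452 TPM in embryo 2, and the 6 cell cycle genes to 274 and 129 TPM. Choroid plexus markers, of interest because that epithelium also carries Slco1c1, summed to 107 TPM in embryo 1 and 6.62 TPM in embryo 2. Ttr, the thyroid hormone carrier transthyretin, supplied most of that gap, with 96.3 TPM in embryo 1 and 0.37 TPM in embryo 2. Folr1, the only other marker of that list with at least 100 counts, had a ratio of 1.07-fold (0.779 to 1.47). Below 100 counts, Kcne2 was 5.32-fold (2.96 to 11.1), Aqp1 5.38-fold (2.65 to 13.8) and Clic6 18.8-fold (6.05 to 195) higher in embryo 1. Kl, also below 100 counts, was at 1.33-fold (0.876 to 2.04). No marker of these 5 lists was at 0 in both embryos. The part of these differences in the ratios of the endothelial and barrier genes was not tested. In bulk tissue, fewer endothelial cells and less RNA per cell cannot be told apart.

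Every member was detected, with at least 1 TPM in both embryos. Across the 10 genes the median of the mean levels was 9.08 TPM, against a median of 17.3 TPM over 14565 genes detected in both embryos. Barrier members spanned the widest range, since they held the 3 highest levels and also the lowest. The median mean level was 25.6 TPM over barrier members and 8.03 TPM over general members.

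Cldn5, which encodes the main claudin of brain endothelial tight junctions (chr16:18776847-18778262, plus strand, GRCm38), had 70.8 TPM in embryo 1 and 56.9 TPM in embryo 2, a mean of 63.9 ± 9.87 (SD, n = 2). It stood above 81.6% of detected genes. Slc2a1, the glucose carrier GLUT1 (chr4:119108711-119137983, plus strand), had 76.6 TPM in embryo 1 and 49.9 TPM in embryo 2, a mean of 63.2 ± 18.9 (SD, n = 2). The values of these leading genes overlapped, so their order was not fixed by the data. The tables gave the main Slc2a1 transcript 2607 bases, whereas the later annotation gives it 3260, and a TPM depends on that length. Genes annotated on the opposite strand of Slc2a1 took at most 3.18 counts each. Mfsd2a, a lipid carrier that holds vesicle transport low in brain endothelium (chr4:122946850-122961188, minus strand), had 26.8 TPM in embryo 1 and 24.3 TPM in embryo 2, below both. Slco1c1, a carrier of thyroid hormone (chr6:141524368-141570177, plus strand), had 9.39 TPM in embryo 1 and 7.43 TPM in embryo 2. Abcb1a encodes the drug efflux pump P-glycoprotein (chr5:8660077-8748575, plus strand) and was lowest of the 10, with 1.71 TPM in embryo 1 and 1.01 TPM in embryo 2. Only 2.07% of detected genes lay below it.

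Among general members Kdr was highest. This main signalling receptor for VEGF (chr5:75932827-75978458, minus strand) had 21.6 TPM in embryo 1 and 7.18 TPM in embryo 2, a mean of 14.4 ± 10.2 (SD, n = 2). Its spread was the widest relative to its mean. Pecam1, an adhesion molecule at endothelial cell contacts that is also carried by platelets and leukocytes (chr11:106654217-106750628, minus strand), had 11.9 TPM in embryo 1 and 7.62 TPM in embryo 2. Tie1, the receptor that partners Tek (chr4:118471191-118490061, minus strand), had 9.68 TPM in embryo 1 and 6.37 TPM in embryo 2. Flt1, a high-affinity VEGF receptor that also acts as a decoy (chr5:147561604-147726011, minus strand), had 8.34 TPM in embryo 1 and 4.86 TPM in embryo 2. Tek, the angiopoietin receptor (chr4:94739289-94874976, plus strand), was the lowest general member, with 7.48 TPM in embryo 1 and 3.31 TPM in embryo 2.

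In the order of mean levels, Slc2a1 stood apart from Mfsd2a, Mfsd2a from Kdr, and Tek from Abcb1a, in that the values of these neighbours did not overlap. Neighbours from Kdr down through Pecam1, Slco1c1, Tie1, Flt1 and Tek overlapped in each case and were not separated. With 2 libraries, likeness of pattern between genes could not be measured, so no further genes are named on that ground.

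**Figure D1:**
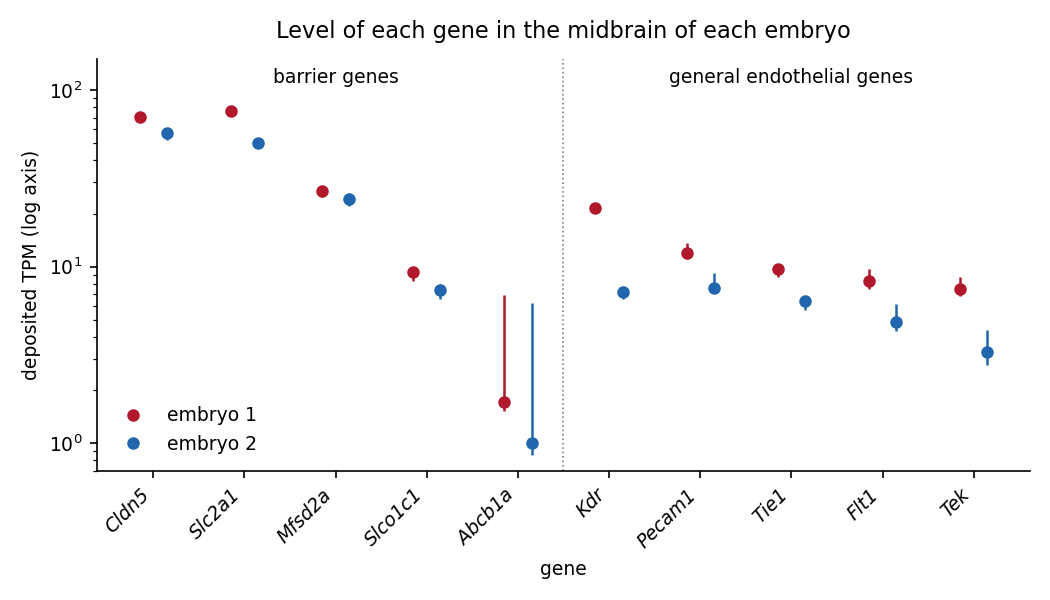
Level of each barrier and general endothelial gene in TPM on a log axis, with 1 point per embryo and the deposited interval of each value. Cldn5 lies at 70.8 and 56.9 TPM, Slc2a1 at 76.6 and 49.9 TPM and Abcb1a at 1.71 and 1.01 TPM in embryos 1 and 2. Embryo 1 is above embryo 2 for all 10 genes.

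All 10 members were higher in embryo 1. Ratios were taken as embryo 1 over embryo 2 from expected counts scaled for library size and composition. Over 14011 genes with at least 100 summed counts, 49.4% were higher in embryo 1. The median ratio over the 10 members was 1.40-fold (0.49 on the log2 scale), against a median log2 ratio of -0.01 and a median size of 0.23 over all genes compared. The scaling matters to the direction of small ratios. Ratios of deposited TPM lay 0.13 higher over all genes on the log2 scale, with 65.3% of them higher in embryo 1, and scaling to the spike-ins moved all ratios by 0.11, with 62.6% higher. The members' median lay 0.47 to 0.50 above that of all genes under each scaling, and all 10 were higher in embryo 1. There is 1 library per embryo, so no ratio has a replicate check, and each 95% interval below covers counting error only.

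Kdr had 2403 counts in embryo 1 and 797 in embryo 2, a 2.72-fold ratio (2.51 to 2.95). Tek, with 638 counts in embryo 1 and 257 in embryo 2, was 2.24-fold higher in embryo 1 (1.94 to 2.60). These receptors for VEGF and angiopoietin were the 2 members at least 2-fold apart, where 3.35% of all genes compared were at least 2-fold higher in embryo 1. No member was at least 2-fold higher in embryo 2, where 1.43% of all genes compared were. At 1.5-fold there were 4 members, the other two being Abcb1a and Flt1, against 8.56% of all genes compared.

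The partner receptors stood closer between the embryos. Flt1 was 1.52-fold higher in embryo 1 (1.35 to 1.71) and Tie1 1.36-fold (1.21 to 1.53), while Pecam1 was 1.41-fold higher (1.26 to 1.60). The balance of gene-level TPM within each receptor pair differed between the embryos. For Flt1 that TPM includes a noncoding form and a soluble form, and the membrane form had 2.65 TPM in embryo 1 and 1.63 TPM in embryo 2. TPM of Kdr over Flt1 was 2.59 in embryo 1 and 1.48 in embryo 2, and TPM of Tek over Tie1 was 0.773 and 0.520.

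Barrier members mostly lay nearer to equality. Cldn5 had 1784 counts in embryo 1 and 1430 in embryo 2, a ratio of 1.13-fold (1.05 to 1.21). The ratio for Mfsd2a was 1.04-fold (0.948 to 1.14), and the ratio for Slco1c1 was 1.13-fold (0.993 to 1.30). For both of these carriers the counting interval included a ratio of 1. Slc2a1 was 1.39-fold higher in embryo 1 (1.32 to 1.46), with 3640 counts in embryo 1 and 2368 in embryo 2. Abcb1a, the thinnest measurement at 141 counts in embryo 1 and 81.8 in embryo 2, was 1.55-fold higher in embryo 1 (1.17 to 2.06).

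The deposited tables carry an interval around each TPM, and no source used here states its level. By these intervals 8 of the 10 members lay apart with embryo 1 higher, against 34% of all genes compared. The exceptions were Mfsd2a and Abcb1a. For Abcb1a the deposited interval ran from 1.52 to 6.95 TPM in embryo 1 and from 0.857 to 6.25 TPM in embryo 2. Its level also depended on the estimator: the deposited posterior mean was 3.52 TPM in embryo 1 and 2.83 TPM in embryo 2, of which a 129-base transcript with 0 expected counts took 1.69 TPM in each.

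**Figure D2:**
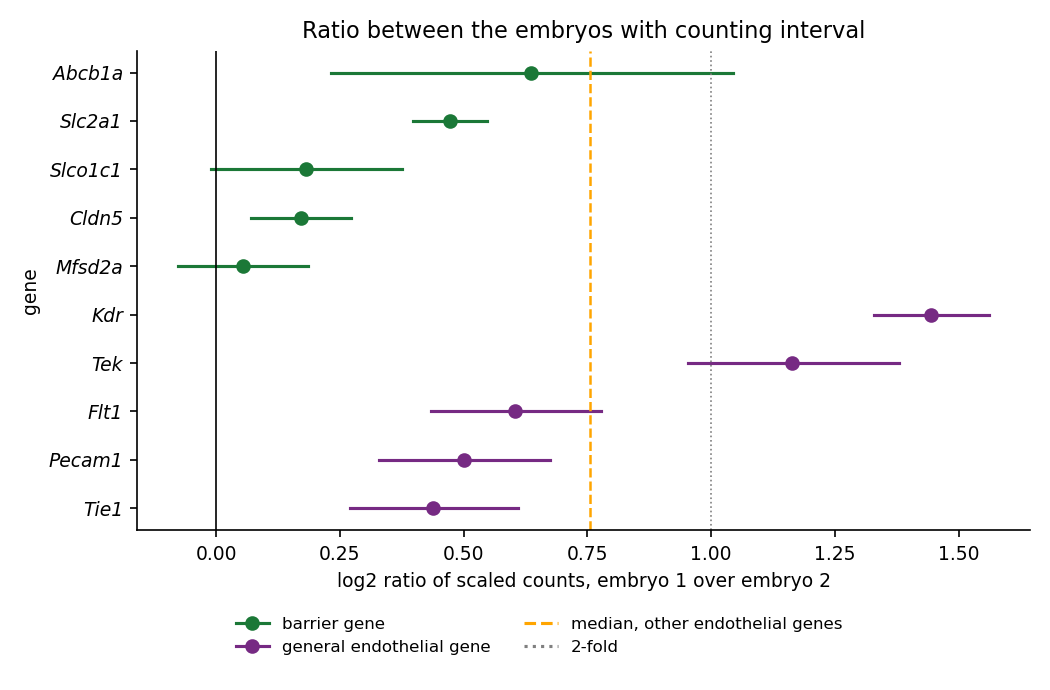
Log2 ratio of scaled counts, embryo 1 over embryo 2, for each member, with its 95% counting interval. Kdr and Tek lie beyond the dotted 2-fold line, and the dashed line marks the median of 19 other endothelial genes at 0.76.

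The barrier and general members were then set against each other. The median log2 ratio was 0.18 over barrier members and 0.60 over general members, a difference of -0.42. Barrier members ran from 0.05 to 0.64 and general members from 0.44 to 1.44, so the sets overlapped. In 21 of the 25 pairs of a barrier and a general gene, the general gene had the larger ratio. The barrier genes in the 4 exceptions were Abcb1a and Slc2a1. The glucose carrier encoded by Slc2a1 is used by many cells besides endothelium, and whether that bears on its ratio was not tested.

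Within a library, a ratio of TPM does not depend on the scaling between libraries. Summed TPM was 185 for barrier members and 59.0 for general members in embryo 1, which is a barrier-to-general ratio of 3.14. In embryo 2 the sums were 140 for barrier and 29.3 for general members, a ratio of 4.75. The mean was 3.95 ± 1.14 (SD, n = 2). Slc2a1 and Cldn5 carried most of the barrier sum: Slc2a1 took 31.3% of the TPM of all 10 members in embryo 1 and 29.6% in embryo 2, and Cldn5 took 29.0% and 33.7%. Kdr took 8.85% in embryo 1 and 4.25% in embryo 2. Without Slc2a1 the barrier-to-general ratio was 1.84 in embryo 1 and 3.05 in embryo 2, and without Kdr it was 4.96 and 6.30.

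Among single pairs, Cldn5 over Pecam1 was 5.96 in embryo 1 and 7.46 in embryo 2, and Slc2a1 over Kdr was 3.54 and 6.95. Not every pair of a barrier and a general gene ran this way. TPM in embryo 1 over embryo 2 was 1.53-fold for Slc2a1 and 1.69-fold for Abcb1a, against 1.52-fold for Tie1. The closest relative of Abcb1a, the efflux pump gene Abcb1b, was nearly silent, with 0.23 TPM in embryo 1 and 0.03 TPM in embryo 2. Expected counts of Abcb1b were 18.9 in embryo 1 and 2.24 in embryo 2, a ratio of 6.48-fold with a counting interval of 2.07 to 75.9. These paralogs are alike in sequence, and the authors' counting could have divided shared reads between them.

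Other endothelial genes also stood higher in embryo 1, by more than most members. Of 20 further identity genes, 18 had at least 1 TPM in both embryos and 19 had at least 100 summed counts. All 19 were higher in embryo 1, and 8 of them by at least 2-fold, with a median ratio of 1.69-fold. Of all genes compared, 49.4% were higher in embryo 1, and 3.35% were at least 2-fold so. Cdh5, the cadherin of endothelial junctions, had 10.2 TPM in embryo 1 and 3.89 TPM in embryo 2, a ratio of 2.38-fold (2.08 to 2.73). Clec14a, a lectin of vascular endothelium, had 4.15 TPM in embryo 1 and 0.75 TPM in embryo 2, the highest ratio of the list at 4.95-fold (3.81 to 6.60). Ramp2, a receptor partner in adrenomedullin signalling, had the highest level and the lowest ratio, with 68.9 TPM in embryo 1 and 47.3 TPM in embryo 2.

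Measured against the median of these 19 genes, 2 members lay above and 8 below. Kdr was 0.69 above on the log2 scale and Tek 0.41 above. The general members Flt1, Pecam1 and Tie1 lay at -0.15, -0.26 and -0.32. The barrier members lay at -0.58 for Cldn5, -0.70 for Mfsd2a, -0.28 for Slc2a1, -0.12 for Abcb1a and -0.57 for Slco1c1. Summed barrier TPM over the summed TPM of the 20 other endothelial genes was 0.631 in embryo 1 and 0.833 in embryo 2. Cldn5 over Cdh5, a pair of endothelial junction genes, was 6.92 in embryo 1 and 14.6 in embryo 2.

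Transcript tables showed which annotated forms carried each gene, and the leading transcript was the same in both embryos for 10 of 10 members. Single forms carried several of them. The leading form held 99.1% of Kdr TPM in embryo 1 and 99.4% in embryo 2, 98.5% and 98.4% of Slc2a1 TPM, and 96.9% and 92.4% of Mfsd2a TPM. Cldn5 has 1 annotated transcript. For Tie1 the leading form held 85.5% in embryo 1 and 90.1% in embryo 2, and for Abcb1a it held 74.7% and 70.6%. The other members were divided among forms, and the stretches that tell those forms apart are shown because each changes the encoded protein.

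Flt1 is known to yield both a membrane receptor and a soluble receptor that lacks the membrane and kinase parts and binds VEGF outside the cell. The membrane form, of 1333 residues, had 2.65 TPM in embryo 1 and 1.63 TPM in embryo 2. The soluble form, of 688 residues, had 2.41 TPM in embryo 1 and 1.42 TPM in embryo 2. It made up 47.6% of these coding forms in embryo 1 and 46.6% in embryo 2, so the balance was close between the embryos while the levels differed. A noncoding form led the gene with 39.4% in embryo 1 and 37.2% in embryo 2. In the soluble form, coding continues past the exon it shares with the membrane form, for the bases in capitals at chr5:147639130-147639224, which end in a stop codon. The sequence is from GENCODE M21 on GRCm38, minus strand.
Flt1 soluble form: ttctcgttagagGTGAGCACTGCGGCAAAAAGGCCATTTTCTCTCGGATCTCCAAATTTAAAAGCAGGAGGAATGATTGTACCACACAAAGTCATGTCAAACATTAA

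Pecam1 forms differed in short cassettes near the end of the coding sequence, which encodes the cytoplasmic tail. The first, in capitals, has 57 bases at chr11:106671742-106671798 on the minus strand, and encodes a stretch of the tail with a tyrosine motif known for binding phosphatases. Transcripts that held it made up 45.6% of the forms that could be told apart in embryo 1 and 48.5% in embryo 2. The next cassette, also in capitals, has 23 bases at chr11:106662002-106662024 and was held by 26.5% in embryo 1 and 21.9% in embryo 2. The leading form, of 697 residues, which lacks both, held 52.4% of the gene's TPM in embryo 1 and 50.5% in embryo 2. The split among the forms with cassettes, which rests on estimated counts, moved more than these shares: the form of 727 residues, which has both cassettes, had 140 expected counts in embryo 1 and 1.81 in embryo 2, whereas a form of 626 residues had 41.0 and 78.7. With posterior mean TPM this opposite move was not seen: the form of 727 residues had 2.09 TPM in embryo 1 and 0.69 TPM in embryo 2, and that of 626 residues had 1.03 and 1.06 TPM.
Pecam1 57-base cassette: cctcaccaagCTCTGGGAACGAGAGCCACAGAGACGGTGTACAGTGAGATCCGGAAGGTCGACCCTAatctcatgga
Pecam1 23-base cassette: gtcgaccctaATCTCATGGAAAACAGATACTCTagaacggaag

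Of the 5 stretches shown, the one in Tek differed most in share between the embryos. This 153-base cassette in its extracellular part, in capitals, lies at chr4:94799127-94799279 on the plus strand. Coding transcripts with it made up 92.3% in embryo 1 and 74.5% in embryo 2. The coding form of 1072 residues, which lacks it, had 0.58 TPM in embryo 1 and 0.76 TPM in embryo 2, from 49.1 and 64.5 expected counts. With posterior mean TPM its direction turned, to 1.06 TPM in embryo 1 and 0.85 TPM in embryo 2, and the shares with the cassette were 85.5% in embryo 1 and 71.0% in embryo 2.
Tek 153-base cassette: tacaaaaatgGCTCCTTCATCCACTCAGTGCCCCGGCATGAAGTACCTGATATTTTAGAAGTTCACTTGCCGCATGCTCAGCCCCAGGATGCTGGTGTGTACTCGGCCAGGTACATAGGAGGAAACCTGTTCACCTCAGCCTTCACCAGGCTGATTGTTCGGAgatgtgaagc

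For Slco1c1 the full-length coding form, of 715 residues, held 44.3% of TPM in embryo 1 and 48.9% in embryo 2. A form annotated as a target of nonsense-mediated decay held the rest. The forms differ at the start of an exon by the 41 bases in capitals, at chr6:141559741-141559781 on the plus strand. A length of 41 is not a multiple of 3, so leaving it out shifts the reading frame. Gene-level TPM for this carrier thus counted coding and decay-annotated RNA together.
Slco1c1 41-base stretch: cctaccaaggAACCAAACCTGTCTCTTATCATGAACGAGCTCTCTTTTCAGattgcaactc

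**Figure D3:**
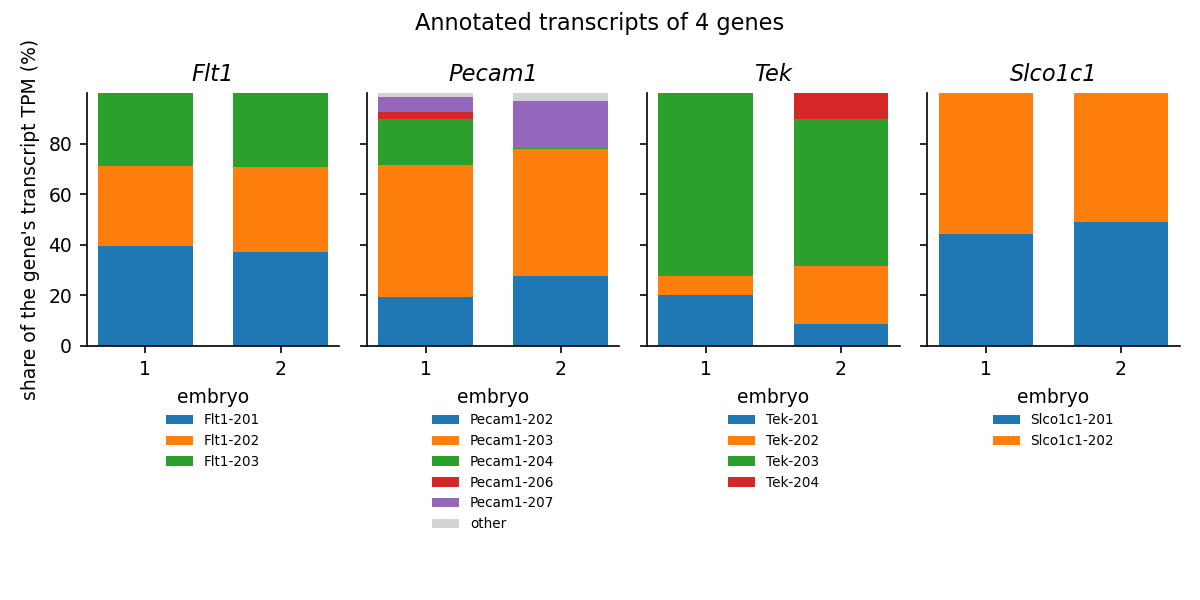
Share of each gene's transcript TPM by annotated transcript, in percent, for Flt1, Pecam1, Tek and Slco1c1 in embryo 1 and embryo 2. The soluble and membrane forms of Flt1 hold similar shares in both embryos, and the Tek form without the cassette (orange) is 7.74% in embryo 1 and 23.0% in embryo 2.

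The promoters of the genes with the largest ratios and the highest levels are printed to show what lies at their starts: Kdr and Tek, and then Cldn5 and Slc2a1. RefSeq windows of 300 bases on GRCm38.p6, lying mostly upstream of each start, matched 9 of 10 members, all but Pecam1. The window of Abcb1a lay 92986 bases from its GENCODE start and was left out, which leaves 8 members. Capitals mark the letters of 6 motifs on either strand. Factors of the ETS family, which act in endothelium, bind around AGGAAG. The TCF/LEF factors of Wnt signalling bind around CTTTGA. The letters of the GATA motif were AGATAA, and those of the SOX motif were ACAAT. The core promoter elements searched were TATAAA for the TATA box and, for the GC box, GGGCGG. The matches in the printed windows did not overlap. Kdr lies at chr5:75978406-75978705 (minus strand), Tek at chr4:94739039-94739338 (plus), Cldn5 at chr16:18776597-18776896 (plus) and Slc2a1 at chr4:119108495-119108794 (plus).
Kdr promoter: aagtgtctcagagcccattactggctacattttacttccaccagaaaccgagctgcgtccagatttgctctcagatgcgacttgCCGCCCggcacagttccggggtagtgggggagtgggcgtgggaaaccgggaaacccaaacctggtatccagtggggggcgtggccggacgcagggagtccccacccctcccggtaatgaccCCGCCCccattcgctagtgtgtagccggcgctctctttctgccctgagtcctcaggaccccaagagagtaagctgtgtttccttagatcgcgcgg
Tek promoter: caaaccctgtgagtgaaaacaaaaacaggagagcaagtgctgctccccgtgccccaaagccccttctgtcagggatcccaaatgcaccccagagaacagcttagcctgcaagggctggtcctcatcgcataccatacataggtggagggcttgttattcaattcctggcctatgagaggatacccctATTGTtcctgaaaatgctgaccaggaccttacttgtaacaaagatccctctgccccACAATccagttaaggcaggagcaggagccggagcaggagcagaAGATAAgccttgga
Cldn5 promoter: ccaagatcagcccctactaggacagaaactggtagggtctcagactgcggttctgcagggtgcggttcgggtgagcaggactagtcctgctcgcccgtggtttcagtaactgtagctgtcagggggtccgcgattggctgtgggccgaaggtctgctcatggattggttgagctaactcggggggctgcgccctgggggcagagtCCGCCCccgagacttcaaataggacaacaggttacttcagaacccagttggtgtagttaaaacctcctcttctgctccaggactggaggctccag
Slc2a1 promoter: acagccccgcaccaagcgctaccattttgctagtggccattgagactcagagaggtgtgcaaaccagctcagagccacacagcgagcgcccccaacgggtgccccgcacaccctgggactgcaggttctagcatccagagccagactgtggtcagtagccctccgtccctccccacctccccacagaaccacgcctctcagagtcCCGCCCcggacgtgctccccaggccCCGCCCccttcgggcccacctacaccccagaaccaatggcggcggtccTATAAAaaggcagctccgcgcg

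The windows of Kdr and Slc2a1 were rich in GC. GC content was 60.7% for Kdr, 52% for Tek, 58.3% for Cldn5 and 65.3% for Slc2a1, beside a median of 52.7% over 32851 mouse promoters. The CpG count was 19 for Kdr and 18 for Slc2a1 but 3 for Tek, against a median of 7. Kdr held 2 GC boxes and no TATA box, Slc2a1 held 2 GC boxes and 1 TATA box, Cldn5 held 1 GC box, and Tek held 2 SOX and 1 GATA match.

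Across the 8 windows, 4 held a GC box, a motif in 35.7% of all promoters, and 3 held the ETS letters, found in 35.4%. The TATA box was in 3, against 13.6% of all promoters. A SOX match was in 1 against 31%, a TCF/LEF match in 1 against 16% and a GATA match in 1 against 11.2%. A match is a description of letters, not of a bound site.

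Genes of the pathways in which the members act were followed in lists. Over all genes compared, 49.4% were higher in embryo 1, and 3.35% were at least 2-fold so. Among 8 sprouting and tip cell genes, 7 had at least 100 counts, 5 of them higher in embryo 1 and 2 higher in embryo 2. Aplnr, the apelin receptor, had 22.1 TPM in embryo 1 and 8.38 TPM in embryo 2. Angpt2, an angiopoietin made by endothelium that can oppose Tek signalling, had 3.30 TPM in embryo 1 and 0.94 TPM in embryo 2, a ratio of 2.82-fold (2.12 to 3.84). These were the 2 genes of the list at least 2-fold apart. Unc5b, a guidance receptor on tip cells, had 1.97 TPM in embryo 1 and 2.13 TPM in embryo 2.

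The genes of ligands and coreceptors lay on both sides of equality, as did all genes compared, of which 49.4% were higher in embryo 1. Of 8 VEGF and angiopoietin ligands and coreceptors, 7 had at least 100 counts, 4 of them higher in embryo 1 and 3 higher in embryo 2, and 0 were at least 2-fold apart. The median log2 ratio was 0.00. Vegfa, the ligand of Kdr and Flt1, had 2.70 TPM in embryo 1 and 3.73 TPM in embryo 2, 1.30-fold higher in embryo 2 (1.05 to 1.61). Vegfb, a ligand of Flt1, had 26.7 TPM in embryo 1 and 37.0 TPM in embryo 2, 1.53-fold higher in embryo 2. Angpt1, the activating ligand of Tek, had 3.98 TPM in embryo 1 and 2.70 TPM in embryo 2.

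RNA of genes of Wnt and related signalling to vessels, not of Wnt7 alone, was also measured. This was in whole midbrain, so the cells that carried the RNA are not known. The 15 genes of this list all had at least 100 counts, with 10 higher in embryo 1, 5 higher in embryo 2, 2 at least 2-fold higher in embryo 1 and a median log2 ratio of 0.20. The ligand Wnt7a had 9.06 TPM in embryo 1 and 7.42 TPM in embryo 2, but its ratio of scaled counts lay on the other side, at 0.940 (0.822 to 1.07), so it has no settled direction. Wnt7b had 28.8 TPM in embryo 1 and 31.4 TPM in embryo 2, 1.21-fold higher in embryo 2 (1.13 to 1.29). Ctnnb1, the beta-catenin through which Wnt acts in many cell types, had 454 TPM in embryo 1 and 281 TPM in embryo 2. Tnfrsf19, a receptor gene known as a Wnt target, had 25.6 TPM in embryo 1 and 10.6 TPM in embryo 2, a ratio of 2.17-fold.

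Further genes of tight junctions and transport were compared with the barrier members. In whole midbrain, the cells that carried their RNA are not known. Among 11 other tight junction genes, 10 had at least 100 counts, 9 of them higher in embryo 1. The median ratio was 1.56-fold, against 1.13-fold for the barrier members. Cldn5, the only tight junction gene among those members, was also at 1.13-fold. Cgn, cingulin of epithelial and endothelial junctions, had 4.73 TPM in embryo 1 and 6 TPM in embryo 2. Jam3, an adhesion molecule, was the most abundant at 51.0 TPM in embryo 1 and 36.8 TPM in embryo 2.

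Of 17 other transport genes, 15 had at least 100 counts, 12 higher in embryo 1 and 1 at least 2-fold so, with a median ratio of 1.19-fold. Bsg, the chaperone of lactate carriers, had 548 TPM in embryo 1 and 539 TPM in embryo 2. Insr, the insulin receptor, had 41.4 TPM in embryo 1 and 39.1 TPM in embryo 2. Scaled counts ran the other way from TPM for both, with ratios of 0.920 for Bsg and 0.903 for Insr. Tfrc, the transferrin receptor that is also high in red cell precursors, had 56.0 TPM in embryo 1 and 24.9 TPM in embryo 2, a ratio of 2.16-fold (2.04 to 2.29). Plvap, which marks fenestrated and immature vessels and is lost as the barrier matures, had a mean level below that of Tek. It stood at 2.83 TPM in embryo 1 and 3.14 TPM in embryo 2, and the counting interval included a ratio of 1 (0.620 to 1.07).

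**Figure D4:**
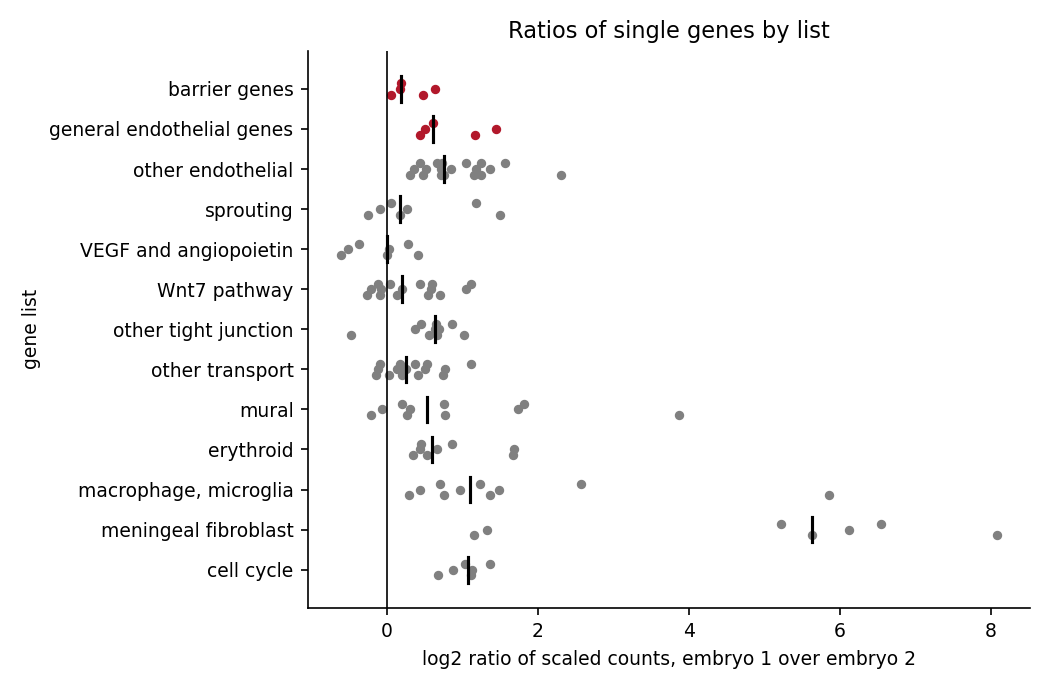
Log2 ratio of each gene with at least 100 summed counts, embryo 1 over embryo 2, by list, with the barrier and general members above the other lists. The barrier members sit between 0.05 and 0.64, the general members between 0.44 and 1.44, and the meningeal fibroblast markers extend to 8.08.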

How the data were processed

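Gene and transcript tables were made by the authors from alignments to mm10 with GENCODE M4, per the notes deposited alongside. The quantifier and strand protocol are named in no source used here. Per the file headers, the authors estimated expected counts per row, which need not be whole, and TPM values are the authors' levels per transcript length, with a posterior mean TPM and interval bounds beside them. The labels' protocols give mirVana extraction of RNA above 200 nt, 10 ng of input and ERCC spike-ins.

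Each gene table had 69691 rows, of which 43346 had an Ensembl identifier. Symbols and coordinates came from GENCODE M21 on the same assembly and matched 42462 of them (98.0%). The 96 spike-ins and 26249 other rows, with 6 counts in embryo 1 and 14 in embryo 2, stayed out of the comparisons.

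Expected counts were rounded for TMM scaling (edgeR 4.0.16, R 4.3.3). Ratios used the unrounded values with a prior count of 0.5 for log2 and an exact conditional binomial 95% interval. Without molecular identifiers, reads are not independent, so intervals cover counting error only. A gene entered counts by size with at least 100 summed counts in both libraries. For a gene at 0 in 1 library, the ratio was given against a floor of 3 counts there, without allowance for counting error. DESeq2 1.42.0 size factors were an alternative, and the ratio script was tested on simulated data.

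Members and lists were chosen with earlier results of these data known. Beside the members, the text names in each list the gene with the highest mean TPM and those with the highest and lowest ratio, and always Cdh5, Plvap, Abcb1b, Vegfa, Wnt7a and Wnt7b. A gene that this rule also picks is not reported here.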

Additional observations from a re-analysis of the deposited data

How the results depend on the processing

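The median log2 ratio of the members stayed between 0.48 and 0.63 under DESeq2 size factors, total counts, spike-in totals, a prior count of 5 and ratios of either deposited TPM. The barrier minus general difference stayed between -0.37 and -0.53, alternatives without Slc2a1, Kdr or Abcb1a included. Members at least 2-fold apart numbered 2 under each of those scalings, prior counts and TPM ratios and without a count filter, and 4 at 1.5-fold. Measured against the median of the other endothelial genes, an alternative chosen after seeing the data, the count was 0 and the median turned to -0.27, with Flt1 at -0.15, Pecam1 at -0.26, Tie1 at -0.32, Cldn5 at -0.58, Slc2a1 at -0.28 and Abcb1a at -0.12; this follows from subtracting a median of 0.76.

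The mean barrier-to-general TPM ratio of 3.95 was 2.10 with geometric means, 2.45 without Slc2a1 and 5.63 without Kdr, and ran from 3.14 to 4.75 leaving out each embryo in turn. The median member level of 9.08 TPM was 11.7 over nuclear protein-coding genes, and ran from 7.31 to 10.8 leaving out each embryo. The leading transcript was the same for all 10 members with posterior mean TPM. No paired analysis was possible because the 2 libraries form 1 group. Depth limited Abcb1a most, at 141 and 81.8 counts.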

Other observations

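Lists of other vessel and blood cell types gave further values, beside 49.4% of all genes compared that were higher in embryo 1. Among 6 fenestrated and leaky vessel genes, 4 had at least 100 counts, 3 higher in embryo 1 and 1 higher in embryo 2, and the selectin genes of activated endothelium, Selp and Sele, had 0 counts in both embryos. Icam1, a leukocyte adhesion molecule, had 3.26 TPM in embryo 1 and 1.30 TPM in embryo 2, and Vcam1, another, had 34.2 and 22.5 TPM. Of 5 lymphatic genes, the 4 with at least 100 counts were higher in embryo 1. Lyve1, a hyaluronan receptor of lymphatic endothelium and of macrophages, had 138 counts in embryo 1 and 0 in embryo 2. That is 41.5-fold higher in embryo 1 when embryo 2 is set to a floor of 3 counts, and the counting interval began at 33.3-fold. Prox1, a lymphatic regulator also used by neural cells, had 8.43 TPM in embryo 1 and 6.06 TPM in embryo 2.

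The 11 mural genes, of pericytes and smooth muscle, summed to 179 TPM in embryo 1 and 77.7 TPM in embryo 2. Of the 10 with at least 100 counts, 8 were higher in embryo 1, against 49.4% of all genes compared. At least 2-fold higher were 3 of them, against 3.35%, and their median ratio was 1.44-fold. Acta2, smooth muscle actin, had 8.75 TPM in embryo 1 and 0.53 TPM in embryo 2. Vtn, vitronectin, a marker of brain pericytes, had 108.6 and 31.6 TPM, which is most of the gap between the mural sums. Notch3, a receptor of mural cells, had 7.53 TPM in embryo 1 and 7.93 TPM in embryo 2. Mrc1, a receptor of border macrophages, had 5.47 TPM in embryo 1 and 0.12 TPM in embryo 2, whereas P2ry12, a microglial receptor, had 3.80 and 2.98 TPM. Pf4, a platelet and macrophage chemokine, had 32.5 TPM in embryo 1 and 2.26 TPM in embryo 2, while the platelet glycoprotein gene Gp1bb had a scaled ratio of 0.822 and a TPM ratio of 1.04, embryo 1 over embryo 2. Col3a1, a fibroblast collagen, had 187 TPM in embryo 1 and 2.81 TPM in embryo 2.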
